A study of Mus musculus with 36 samples.

Results

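The samples described here were the untreated baseline of a study of the mouse mesenteric lymph node, the node that drains the gut. They were nodes of mice given phosphate-buffered saline (PBS) and taken at day 0, chosen by their titles and treatment labels, and they made up 6 of the 36 array measurements of the series. Total RNA was hybridised to Affymetrix arrays of 2 designs with largely different probe sets, called array A and array B here, and each design has 3 PBS samples. The other samples of the series received a soluble lymphotoxin-beta receptor for 1, 2, 3, 27 or 35 days and were not used. Mouse strain, age and sex, whether a sample was 1 mouse or a pool, and whether a sample number marks the same RNA on both arrays, are not stated by the labels. The question addressed was what the saline-treated node expresses and how far its 3 samples differ. With 1 group there was no contrast and no test.

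A lymph node is a framework of fibroblastic reticular cells, follicular dendritic cells, lymphatic vessels and blood vessels through which lymphocytes pass. Lymphocytes enter from the blood through high endothelial venules, are sorted by chemokines into B cell follicles and a T cell zone, and meet antigen carried by dendritic cells and macrophages. Lymphotoxin made by lymphocytes acts on the lymphotoxin-beta receptor of stromal cells and keeps this framework in place. RNA was taken from whole nodes, so more cells of a type and more RNA per cell cannot be told apart.

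Values are the authors' intensities on a linear scale. A background level was set on each table at the 90th percentile of the values of a list of genes restricted to other tissues, such as retina, lens, sperm, egg and pituitary. It was 255.6 on array A, from 57 probe sets, and 272.4 on array B, from only 4. A probe set was called above background where all 3 samples exceeded this level. On array A 11524 of 22626 probe sets did so (50.9%), and on array B 4999 of 22511 (22.2%). Over both arrays, 9546 of 18193 genes that a probe set names alone had at least 1 such probe set (52.5%), and the counts of list members below are read against that share. A bright probe set does not by itself show more RNA than a dim one. Among 3901 genes with several probe sets on array A and at least 1 with a mean over the level, the brightest and dimmest differed by a median of 2.58-fold. Ranks are therefore ranks of brightness.

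The 3 samples were close to one another. Across the probe sets above background, Pearson's r of log2 intensity between samples was 0.980 to 0.987 (array A) or 0.965 to 0.968 (array B), as a description across probe sets, which are not independent. The median standard deviation (SD) of log2 intensity over the 3 samples was 0.083 on array A and 0.084 on array B, a coefficient of variation (CV) of 5.77% and 5.80%. Sample medians on array A were 290.8, 283.0 and 272.8. Sample 3 held the lowest value for 48.8% of the 7400 named genes above background there, taking the brightest probe set of each, and its median deviation from the 3-sample mean was -0.03 (log2). The hybridisation spike bioD read 1556, 1833 and 2374 there, highest in sample 3. The ratio of 3′ to 5′ control probe sets, a measure of intact RNA, was between 0.991 and 1.11 for Gapdh and between 0.980 and 1.05 for Actb in all 6 measurements.

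The brightest named transcripts were those of the cytoskeleton, translation, antigen presentation, antibody and fat. Actb, cytoplasmic actin, read 10998, 10571 and 10160 in samples 1, 2 and 3 of array A, the brightest gene named alone on that array. Next came Eef1a1, the translation elongation factor, with 9826, 10454 and 9828, and Tmsb4x, which binds actin monomers, with 9579, 10114 and 10408. The samples overlapped in order from gene to gene, and no sample was highest for all 3. Among the 25 brightest genes, 12 encoded ribosomal proteins, namely Rps29, Rpl41, Rps28, Rpl37a, Rpl13a, Rps7, Rplp2, Rpl4, Rps3, Rps3a1, Rps2 and Rpsa. The rest were Tpt1, a translation-associated protein whose second probe set averaged only 92.9, Fth1 (ferritin heavy chain), the class I genes H2-K1, H2-D1 and B2m, the class II genes Cd74 and H2-Aa, the antibody genes Igkv8-30 and Igha, and Scd1, a fatty acid desaturase abundant in fat.

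On array B the 12 brightest were Psap, H2-Aa, Rpl22, Ly6e, Sf1, Tox2, Pisd, Nfkbia, Cnpy2, Adcy5, Pdzd11 and Acaca. Psap, the precursor of lysosomal saposins, read 6056, 6430 and 6116. H2-Aa, a class II chain, read 5910, 6098 and 5610 there. Acaca, which makes malonyl-CoA for fatty acid synthesis, read 2469, 2755 and 2609. Several of these probe sets carry the suffixes _s_at and _x_at, by which Affymetrix marks probes that can match other transcripts, so the names Rpl22, Nfkbia, Sf1, Cnpy2, Adcy5, Pdzd11, Tox2, Pisd, Ly6e and H2-Aa are uncertain. The same holds on array A for H2-K1, H2-D1, H2-Aa, Igkv8-30, Igha and Fth1, and for the ribosomal names Rps29, Rpl41, Rps28 and Rps2.

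Stromal cell genes were well represented. Of 114 stromal genes named alone, 90 were above background (78.9%, against 52.5% of all named genes). These lists were chosen as lymph node genes, so the difference describes the choice as well as the node. Glycam1, the mucin-like ligand for L-selectin that high endothelial venules make, read 5239, 6627 and 5555, a mean of 5807 ± 727 (SD, n = 3), and ranked 93 of the 22626 probe sets of array A. The venule cell transcript was thus among the brightest of the whole node, and sample 2 was the highest. Madcam1, the addressin that carries lymphocytes to gut-associated tissue, read 736, 826 and 632, in the same order for samples 1 and 2 but lowest in sample 3. Icam1, an adhesion molecule of endothelium and many other cells, read 932, 900 and 855.

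Other venule genes were much dimmer. Ubd, a ubiquitin-like protein, read 688, 763 and 768. Ackr1, the chemokine-binding receptor of venules, read 571, 621 and 611, and Fut7, the fucosyltransferase that helps to build L-selectin ligands, read 470, 438 and 517. Chst4, the sulfotransferase that completes those ligands, read 110, 105 and 106, far below the level of 255.6. Fut4, B3gnt3 and Sele were below it in every sample as well. In all 7 of 15 venule genes passed (46.7%), the smallest share among the 7 stromal lists, and the pass of Glycam1 says nothing of the other members.

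**Figure D1:**
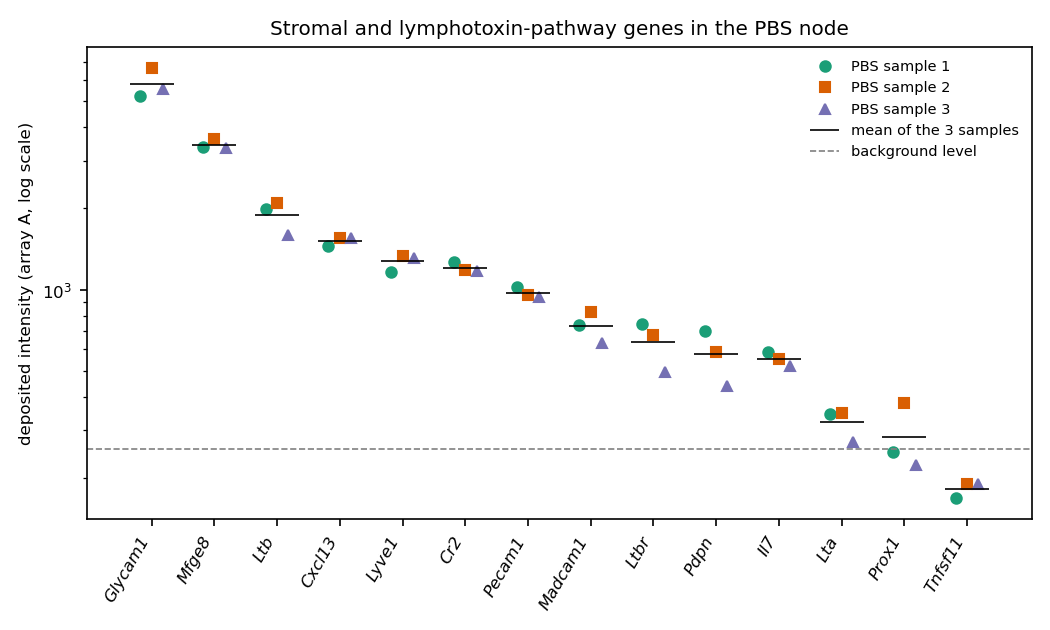
Deposited intensity on array A (log scale) of 14 genes of stroma and of the lymphotoxin pathway in PBS samples 1, 2 and 3, brightest probe set of each gene. Bars are means of the 3 samples and the dashed line is the background level of 255.6. Glycam1 lies at 5239 to 6627, Tnfsf11 lies below the line in all 3 samples, and Prox1 is above it only in sample 2.

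Follicular dendritic cells hold antigen for B cells and draw them into follicles. Their list had 11 of 16 members above background (68.8%). Clu, clusterin, was the brightest with 4529, 4844 and 4312, and its other 3 probe sets gave 2926 to 3943. Mfge8, which these cells secrete to clear dying B cells, read 3372, 3621 and 3354 and had a CV of 4.32%. Cxcl13, the chemokine that attracts B cells, read 1455, 1554 and 1549 on 1 probe set and 1574, 1388 and 1408 on the other. The pair ordered the samples differently, so no sample stood out for Cxcl13.

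Cr2, complement receptor 2, read 1270, 1179 and 1170, and Vcam1, an adhesion molecule, read 1708, 1524 and 1858. Both are also made by other cells of the node, Cr2 by B cells. The members below the level in every sample were Bst1, Lrat, Sox9, Coch and Tnfsf11. Tnfsf11, the cytokine RANKL, read 168, 190 and 189.

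Fibroblastic reticular cells span the T cell zone. Of their 13 named members, 10 were above background (76.9%). Cxcl12, a chemokine of stromal cells, read 2347, 2606 and 2422. Thy1, which T cells also carry, read 1792, 1660 and 1592, and Fstl1, a secreted glycoprotein, read 770, 929 and 777. Il33, an alarmin kept in stromal nuclei, read 751, 734 and 587. Sample 3 was the lowest for Thy1 and Il33 and not for Cxcl12 or Fstl1.

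Pdpn, podoplanin, had the widest spread of the fixed stromal genes that were above background. It read 703, 585 and 436, a SD of 0.35 on the log2 scale. Il7, the survival cytokine for naive T cells, read 585, 552 and 519 on 1 probe set, while its other probe set stayed at 72.5 to 83.8, below background. Pdgfrb, Tnfsf13b (the B cell survival factor BAFF) and Bst1 were below the level in every sample. Ccl19 and Ccl21a, the chemokines that draw T cells and dendritic cells into the node, had no probe set that names them alone and were not analysed here.

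The extracellular matrix list, the collagens, proteoglycans and laminins of the node's capsule and fibres, had 33 of 35 named members above background (94.3%). Dcn, the proteoglycan decorin, read 5824, 5474 and 5196 on array A and ranked 114, although a second probe set on array B read at most 120.5. Vim, vimentin, read 3213, 3184 and 3297, Sparc read 3053, 3119 and 2862, and Bgn, biglycan, read 2028, 2167 and 1980. Their CVs lay between 1.83% and 5.72%. Col3a1, a fibrillar collagen, was less even, with 1208, 1644 and 1273 and its highest value in sample 2. Lamb2 and Nid2, both of basement membrane, were below the level in every sample.

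Endothelial transcripts were present at middle levels. The blood endothelium list had 14 of 18 members above background (77.8%), led by Kdr, the main receptor for vascular endothelial growth factor, with 1337, 1590 and 1470. Plvap, of fenestrated endothelium, read 1298, 1598 and 1390, Egfl7 read 1119, 1181 and 1145, and Eng, endoglin, read 1106, 1169 and 1062. Pecam1, an adhesion molecule of endothelium, read 1020, 957 and 939. Vwf and Emcn were below the level in every sample.

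Lymphatic endothelium, which lines the sinuses, had 11 of 13 members above background (84.6%). Lyve1, its hyaluronan receptor, read 1166, 1338 and 1311, and a second probe set read 841, 1010 and 1035. Sample 1 was the lowest on both. Flt4, the receptor for lymphatic growth factors, read 956, 1003 and 988, and the scavenger receptors Stab2 and Stab1 read 687, 718 and 642, and 661, 670 and 676. Prox1, the transcription factor that sets lymphatic identity, read 249, 379 and 222 on array A. Only sample 2 was above the level, and both array B probe sets stayed below 272.4 in every sample, the highest value being 177.6. Foxc2 was below the level in every sample.

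Smooth muscle and pericyte genes, of vessel walls and the capsule, had 8 of 10 members above background (80.0%). Acta2, smooth muscle actin, read 2363, 2390 and 2285 on the brightest of 3 probe sets, and the other pair stayed below background. Tagln read 845, 935 and 718, Mylk, myosin light chain kinase, 754, 824 and 652, and Rgs5, of pericytes, 755, 572 and 687. Cnn1 and Actg2 were below the level in every sample.

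**Figure D2:**
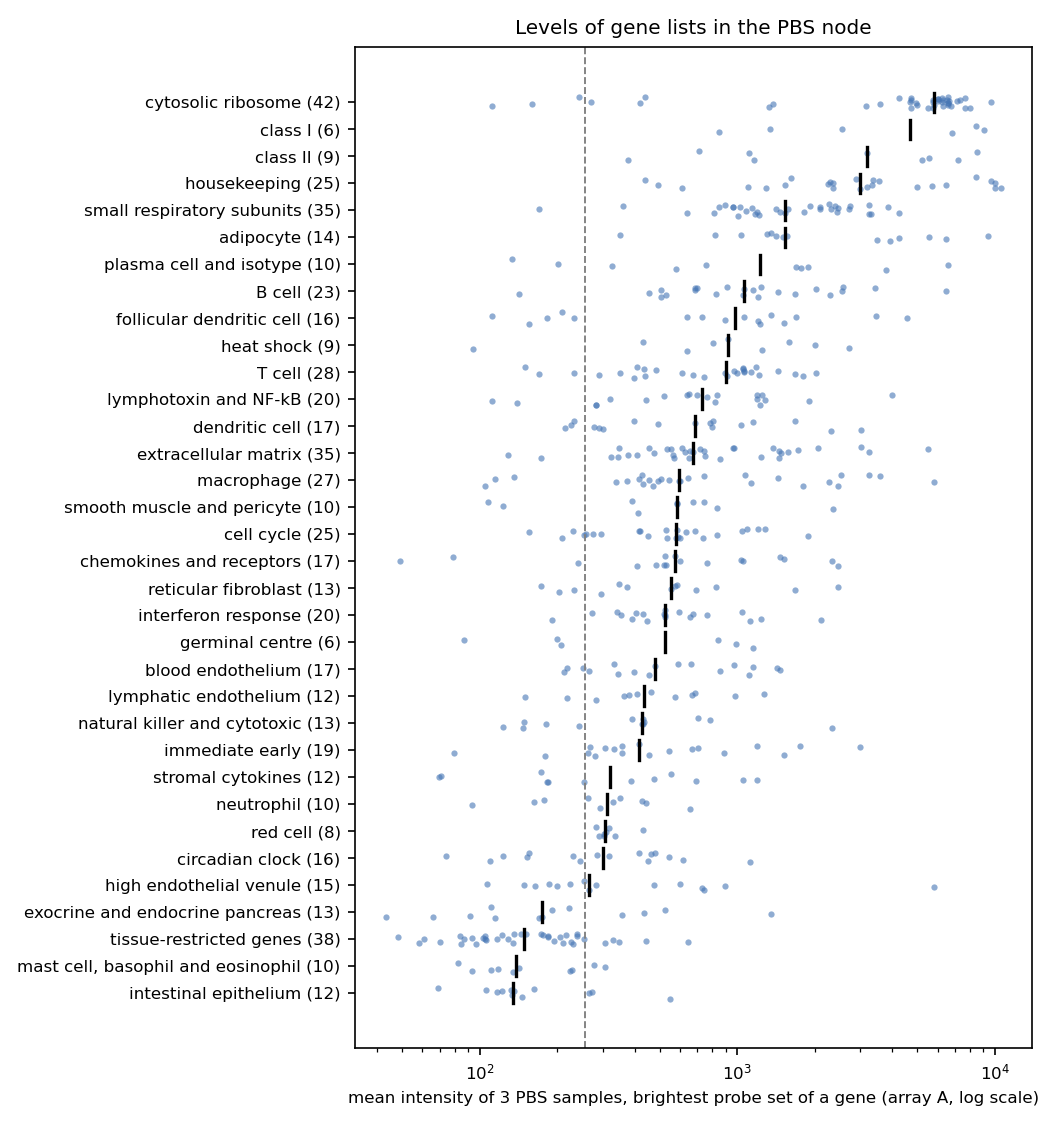
Mean intensity over the 3 PBS samples (array A, log scale) of each member of the gene lists with at least 5 genes on the array, 1 point per gene at its brightest probe set. Black bars are list medians, the dashed line is the background level of 255.6, and numbers in brackets count genes. Ribosomal genes have a median of 5777 and the tissue-restricted genes of 148.5.

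The lymphotoxin pathway was expressed on both sides of the signal. Ltb, which lymphocytes combine with lymphotoxin alpha into the membrane-bound ligand, read 1992, 2089 and 1595. Lta, its partner, read 344, 347 and 272, just above the level. Ltbr, the receptor of stromal and myeloid cells, read 748, 680 and 492, with a SD of 0.32 (log2). Sample 3 was the lowest for all 3 genes. Tnfsf14 (LIGHT), the other ligand of the receptor, read 121, 116 and 97.6, below the level.

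Downstream, Nfkbia, the inhibitor of NF-kB, was the brightest of the list with 3898, 4141 and 3894. Ikbkb, the kinase that removes it, read 1216, 1458 and 1179, and Birc3, an NF-kB target that also restrains the alternative pathway, read 1308, 1260 and 1156. Map3k14, the kinase that starts the alternative pathway, read 685, 660 and 598, and its transcription factors Nfkb2 and Relb read 834, 825 and 846, and 756, 885 and 812. Of the 20 named members 18 were above background, and Rel was below it with Tnfsf14.

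Among chemokines, Ccl5, of T and natural killer cells, read 2061, 2545 and 2416, and the receptor Ccr6, of B cells and some T cells, read 1466, 1465 and 1473. Ccr7, the receptor by which T cells and dendritic cells reach the T cell zone, read 895, 1181 and 1090, and Cxcr5, its counterpart for follicles, 533, 522 and 528. Of 17 chemokine genes 14 were above background (82.4%). Ccl25 and the scavenger receptor Ackr3 were below it. Of 12 stromal cytokines only 6 were above, close to the 52.5% of all genes, led by Csf1, the macrophage growth factor, with 1136, 1216 and 1232, and Tgfb1 with 1023, 1040 and 1090. Il6, Vegfc and Il34 were below the level in every sample.

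Of 25 named B cell genes 24 were above background (96.0%). Cd79a, the signalling chain of the B cell receptor, read 3459, 3424 and 3342, a CV of 1.76%. Ms4a1, the surface protein CD20, read 2768, 2525 and 2400, although its other probe set stayed below background. Cd22, an inhibitory co-receptor, read 2482, 2614 and 2517. Only Pax5, the B lineage transcription factor, was below the level in every sample, with 252, 258 and 263 on its brighter probe set, which lies on array B.

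T cells had 26 of 29 named genes above background (89.7%). Cd3e and Cd3d, chains of the T cell receptor complex, read 1746, 1779 and 1888, and 1332, 1467 and 1531. Both were lowest in sample 1 and highest in sample 3. Klf2, a transcription factor of recirculating naive T cells, read 1949, 2011 and 2110 in the same order, while Lef1, on array B, read 1399, 1377 and 1208. Cd4 read 969, 895 and 870 and Cd8a read 1107, 1039 and 1044. Foxp3 and Il2ra, of regulatory T cells, and Gata3 were below the level in every sample, Foxp3 with 142, 164 and 144.

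Cytotoxic genes passed in 8 of 14 cases (57.1%). Besides Ccl5, Nkg7, of cytotoxic granules, read 770, 765 and 816, Il2rb read 761, 760 and 588, and Klrd1, an inhibitory receptor chain, 413, 422 and 473. The killing proteins Prf1 and Gzmb were below the level in every sample, with 182, 183 and 179 and with 158, 152 and 134, as were Klre1, Klrc1 and Fasl. Germinal centre genes passed in 5 of 9 cases (55.6%), near the share of all genes. Basp1, Lmo2 and Bcl6, the master regulator of the germinal centre, read 1120, 1206 and 1137, 1012, 994 and 971, and 756, 980 and 785. Neil1 read 587, 491 and 491 on array B. Fas, Gcsam, Mybl1 and Rgs13 were below the level.

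Plasma cell transcripts were bright. Igha, the heavy chain of IgA, the antibody of gut secretions, read 7170, 6056 and 6498 and ranked 55. Its other 2 probe sets also had their highest value in sample 1. Jchain, which joins IgA into dimers, read 3904, 3376 and 4015, and Xbp1, the secretory regulator, 2014, 1656 and 1960. Mzb1, a chaperone of antibody-secreting cells, read 2070, 1441 and 1946 on array B. Sample 2 was the lowest for all of these on the probe sets given. Of 11 members 9 were above background (81.8%). Prdm1 and Tnfrsf17 were below the level.

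Several antibody probe sets differed widely between samples. Ighm, the heavy chain of IgM, had 8 probe sets above background. Its brightest read 6666, 5913 and 6791, with samples 1 and 3 alike. Another read 5927, 2629 and 3116, and a different one 5630, 2479 and 3026. On these and on 2 more probe sets, sample 1 was about 2-fold above the other pair, while the remaining 4 had a SD of at most 0.255 (log2). Some of the antibody probe sets carry the suffixes for probes that can match other transcripts, and which part of Ighm each one reads was not analysed here.

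**Figure D3:**
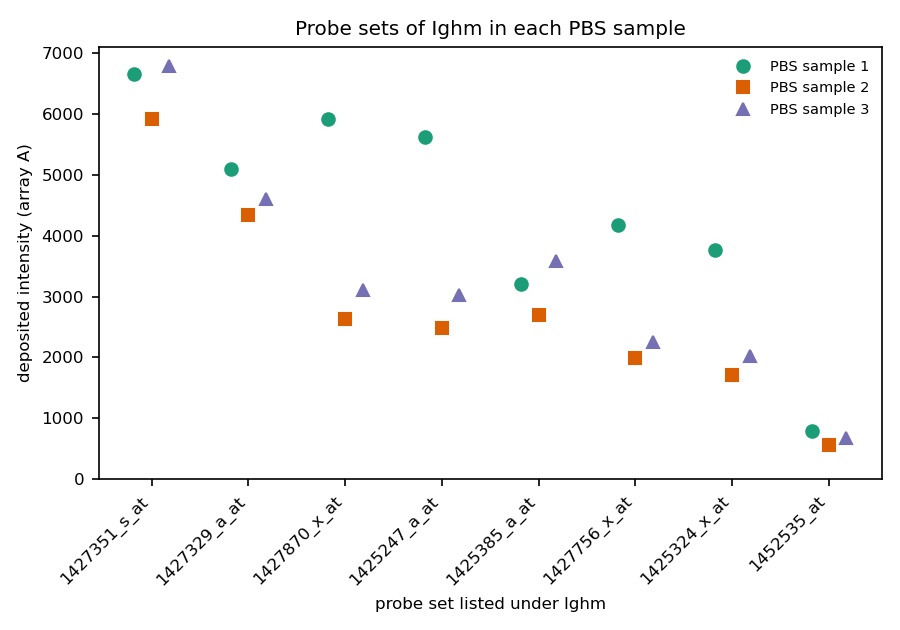
Deposited intensity (array A, linear axis from 0) of the 8 Ighm probe sets above background in PBS samples 1, 2 and 3. In 4 probe sets sample 1 is set apart (for example 5927 against 2629 and 3116), and in the brightest the samples lie at 5913 to 6791.

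Single light chain variable genes also differed, and only some shared an order. Igkv15-103 read 567, 1625 and 1074, Igkv14-111 read 1700, 617 and 956, and Igkv9-120 read 677, 501 and 1428 on its most variable probe set. Each was highest in a different sample. Igkv6-14 read 1214, 746 and 823, and Igkv6-15 read 485, 344 and 378. Both had the order of Igkv14-111 and of the Ighm probe sets with sample 1 set apart. Iglv1 read 1813, 1309 and 2177 on 1 probe set, highest in sample 3. Ighg3, the IgG3 heavy chain, read 1200, 1551 and 2338 on 1 probe set, with its other 3 below background. Of the 25 antibody probe sets above background on array A, 12 had a SD of over 0.25 (48%), against 2.88% of all probe sets above background there. This group was singled out after its values were seen. The bright Igkv8-30, at 8711, 8629 and 8630, did not share the spread and had a SD of 0.0079.

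**Figure D4:**
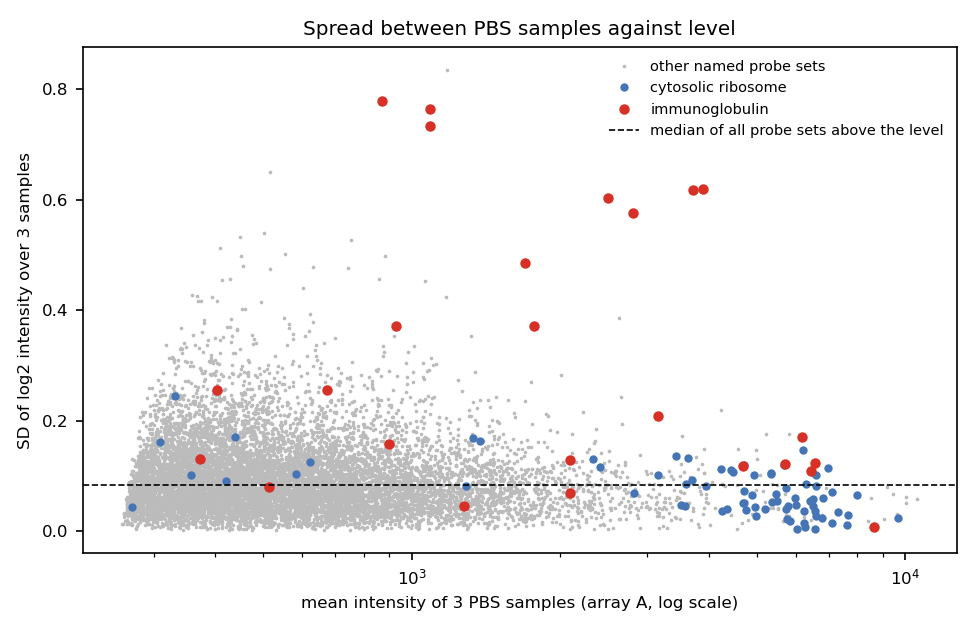
SD of log2 intensity over the 3 PBS samples against mean intensity (array A, log axis), for named probe sets above background. Ribosomal probe sets are blue, antibody probe sets red, and the dashed line is the median SD of 0.083. Antibody probe sets reach 0.78 and most ribosomal probe sets lie near or below the line.

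On array A 11 of 11524 probe sets above background had a highest sample more than 2-fold above the lowest, and on array B 2 of 4999. Of the 11, 7 were the Ighm and light chain probe sets above, and the others were Shmt2, Max, Lrrc14 and Hmgn1. Shmt2, a mitochondrial enzyme of one-carbon metabolism, had the widest spread on array A, with 710, 2035 and 794, while its other 3 probe sets lay between 307 and 510 with a SD of at most 0.16. Max, the partner of Myc, read 675, 585 and 291, and Lrrc14, Ces1f, Vma21, Hcfc1, Ndrg3 and Mtmr4 were also lowest in sample 3. For Hcfc1, Ndrg3 and Mtmr4 another probe set above background was flat, with a SD of at most 0.094. Hmgn1 read 496, 1030 and 729 on 1 probe set and 2088, 2217 and 2168 on its brightest.

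Hp, the acute-phase haemoglobin scavenger haptoglobin, read 791, 420 and 449 on its only probe set. Among the 60 most variable genes of array A, 29 had another probe set above background, and in 3 of these another probe set exceeded a SD of 0.25. On array B, Prickle1 read 340, 330 and 992 and Cdk19 read 1445, 606 and 1369, followed by Arhgef18, Dcun1d2, Nup54, Insig1, Drosha and Pde4d with SDs of 0.35 to 0.47. Of the 60 most variable there, 17 had another probe set above background and 0 of them exceeded 0.25.

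Myeloid genes were led by macrophage transcripts, with 25 of 28 macrophage genes above background (89.3%). Lyz2, lysozyme, read 5762, 5733 and 5933. Csf1r, the receptor for the macrophage growth factor, read 3544, 3748 and 3410. Marco, a scavenger receptor of sinus macrophages, read 3139, 3242 and 3331, and C1qa, a complement component, read 2498, 2495 and 2559. The 4 genes had small spreads and no common order of samples. C1qb was less even on 1 probe set with the suffix _x_at, with 737, 1075 and 1374. Of 24 macrophage genes above background on array A, 11 were highest in sample 3, against 24.6% of all named genes there. Itgam, Cd163 and Vsig4 were below the level.

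Dendritic cell genes passed in 15 of 18 cases (83.3%). Cst3, a protease inhibitor, read 2827, 3157 and 3104, Fscn1, an actin-bundling protein of mature dendritic cells, 2082, 2381 and 2452, and Irf8, a transcription factor of the lineage, 1538, 1725 and 1748. Sample 1 was the lowest for all 3. Cd83, an activation marker shared with B cells, read 1021, 1158 and 1266 and was also lowest in sample 1. Cd209a, Ccl17 and Ly75 were below the level.

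Granulocyte genes were dim. Of 10 neutrophil genes 6 were above background, the brightest being Ngp, a granule protein, with 620, 674 and 672. Elane, Ltf and S100a8 read 471, 450 and 403, 487, 398 and 396, and 315, 319 and 421. Mpo, Camp and Cxcr2 were below the level. Among 10 genes of mast cells, basophils and eosinophils, Kit, the stem cell factor receptor, with 294, 332 and 290, and Cma1, a chymase, with 292, 282 and 258, alone were above it. The 8 below it in every sample were Cpa3, Mcpt4, Tpsb2, Ms4a2, Fcer1a, Prg2, Epx and Mcpt8.

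All 16 named antigen presentation genes were above background. Cd74, the class II invariant chain, read 8151, 8828 and 8632. H2-Aa read 7375, 7326 and 6773, H2-Ab1 read 5526, 5683 and 5371, and H2-Eb1 read 5274, 4988 and 5343. H2-Ea, the partner chain of H2-Eb1, read only 379, 374 and 379 on the brightest of its 3 probe sets, and the other pair stayed below background. Among class I genes, H2-K1 read 9197, 9003 and 8941, B2m read 8314, 8442 and 8514, and Tapbp, which loads peptide, read 2553, 2550 and 2569. The median SD of the class I list was 0.025 (log2), the smallest of all 38 lists.

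Housekeeping genes were all above background, 25 of 25, with a median intensity of 2996 and a median SD of 0.052. Of 43 named ribosomal protein genes 39 were above it (90.7%), with a median on array A of 5777 and a median SD of 0.046. Rpsa, a protein of the small subunit, varied least among the 25 brightest genes, with 6542, 6560 and 6571. The ribosomal genes below the level were Rpl14, Rpl39, Rps16 and Rps27, and another 34 had no probe set naming them alone. Of 36 small subunits of the respiratory chain 34 were above the level (94.4%). Uqcrb, of complex III, read 4011, 4508 and 4222, and Cox8a, Cox6a1 and Cox4i1, of cytochrome oxidase, read 4046, 3837 and 3688, 3063, 3563 and 3314, and 3097, 3335 and 3325. Ndufb4 and Cox7c were below it.

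A feature of the gene start that the ranking did not use was more frequent among ribosomal genes than among all genes. Ribosomal protein messages are known to begin with a run of C and T, through which their translation is controlled. In the RefSeq promoter windows (GRCm38.p6, 250 bases before to 50 bases from the start), a C followed by at least 5 letters that are each C or T was searched on the gene's strand from 3 bases before to 8 bases from the start. It was found in 22 of 57 ribosomal genes with a window (38.6%). It was found in 15 of 73 among the 100 brightest named genes of array A (20.5%) and in 2012 of all 27025 genes (7.44%). Many of the 100 brightest are ribosomal genes themselves, and the share without them was not computed. The letters TATAAA were searched 40 to 16 bases before the start on the gene's strand. They were in 0 of 57 ribosomal genes with a window, in 5 of 31 tissue-restricted genes (16.1%) and in 650 of all genes (2.41%). The letters GGGCGG, on either strand of the whole window, were in 61.4% of ribosomal genes, 67.9% of genes above background and 38.2% of all genes. These are matches of letters only.

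Stretches from 45 bases before to 15 bases from the start show this feature beside stromal genes named above. The 4 ribosomal genes are the brightest with 1 window that holds the run. Capitals mark the run as matched from 3 bases before the start on. C or T letters directly before the match, as in Rplp2 and Rpl7a, are in lower case. In Mfge8 the capitals mark GGGCGG. The other 3 stromal stretches hold neither and are in lower case.
Glycam1 (chr15:103565067-103565126, minus strand): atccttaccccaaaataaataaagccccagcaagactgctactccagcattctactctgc
Madcam1 (chr10:79664514-79664573, plus strand): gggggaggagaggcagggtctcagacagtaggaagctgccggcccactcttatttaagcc
Cxcl13 (chr5:95956894-95956953, plus strand): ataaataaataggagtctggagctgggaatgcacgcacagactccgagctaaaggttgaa
Mfge8 (chr7:79149046-79149105, minus strand): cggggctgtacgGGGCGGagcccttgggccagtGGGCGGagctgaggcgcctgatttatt
Rpl13a (chr7:45128731-45128790, minus strand): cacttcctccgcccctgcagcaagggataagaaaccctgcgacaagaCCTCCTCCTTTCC
Rplp2 (chr7:141447606-141447665, plus strand): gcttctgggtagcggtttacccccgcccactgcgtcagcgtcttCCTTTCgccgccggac
Rpl7a (chr2:26910762-26910821, plus strand): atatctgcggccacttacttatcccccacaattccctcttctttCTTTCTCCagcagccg
Rps18 (chr17:33955651-33955710, minus strand): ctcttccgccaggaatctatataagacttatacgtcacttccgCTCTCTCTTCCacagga

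On array A the genes of fat cells had a higher median brightness than those of B and T cells. All 14 named adipocyte genes were above background. The median percentile on array A was 95.7 for adipocyte, 91.7 for B cell and 88.8 for T cell genes. On array B, with only 3, 5 and 8 genes, these percentiles were 92.2, 99.0 and 95.1. Scd1 read 9930, 9325 and 9057 and ranked 11. Car3, a carbonic anhydrase of fat and muscle, read 6972, 6058 and 6413, and Fabp4, which binds fatty acids, 5581, 5639 and 5351. Another Fabp4 probe set above background read 816, 479 and 568, with a SD of 0.39 (log2). Adipoq, the hormone adiponectin, read 5009, 3826 and 3877, and Lep, leptin, 886, 739 and 843. Both hormones, made by fat cells, were highest in sample 1. So were 8 of the 14 adipocyte genes on array A, but also 44.9% of all named genes above background there. The adipocyte medians of the 3 samples spanned 0.0892 (log2), and only 0.0019 with samples scaled to a common median. Mesenteric nodes lie in fat, and the labels do not state how much fat was taken with each node.

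Other neighbouring tissues were weaker. Of 13 pancreas genes 4 were above background (30.8%): Prss2, Ctrb1, Cela3b and Cela1. Prss2, a trypsinogen, read 1193, 1602 and 1277 on 1 probe set, while no other of its 4 probe sets was above the level in every sample. Ctrb1, Cela3b and Cela1, of digestive proteases, read 529, 512 and 528, 492, 422 and 384, and 383, 347 and 339. The other 9, Cela2a, Cpa1, Cpb1, Cel, Pnliprp1, Clps, Reg1, Ins2 and Gcg, were below it in every sample. Of 14 gut epithelium genes 4 were above it (28.6%), and Vil1, Cdx1, Cdx2, Fabp1, Fabp2, Apoa4, Krt20, Muc2 and Cdh17 were below it in every sample. Epcam, an epithelial adhesion molecule, read 1105, 1081 and 1027 on array B, but at most 146.5 on array A. Tff3, of goblet cells, and Lgals4 read 624, 576 and 439, and 294, 258 and 269, and Alpi read 363, 290 and 339 on array B. Xist, the RNA that coats the silent X chromosome of females, read 3398, 3592 and 3150, and the Y-linked Eif2s3y, Kdm5d and Uty were below the level in all 3 samples.

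Some lists had small median shifts between samples. For each list with at least 5 genes above background on array A, the median deviation from the 3-sample mean was taken in each sample. In 5 lists these medians spanned at least 0.15 (log2): smooth muscle and pericyte, reticular fibroblast, red cell, plasma cell and cell cycle. Sample 3 was the lowest in the first 3 of these, with -0.14, -0.09 and -0.11, against -0.03 for all named genes. The 5 tissue-restricted genes above background had medians of 0.08, -0.01 and -0.07 and a span of 0.146, so shifts of this size with sample 3 lowest were also seen there. These 5 are the members that exceeded the level set by their own list, so they cannot stand for signal without transcript. Of the 10 reticular fibroblast genes 8 had their lowest value in sample 3, as did 8 of 11 follicular dendritic cell genes and 13 of 18 lymphotoxin and NF-kB genes, against 48.8% of all named genes. With samples scaled to a common median, the spans were 0.087 for reticular fibroblast, 0.046 for follicular dendritic cell and 0.081 for lymphotoxin and NF-kB genes, against 0.178, 0.124 and 0.149, and sample 3 was still the lowest in all 3. Those of smooth muscle and red cell genes were 0.125 and 0.118, against 0.202 and 0.181. Sample 1 held the lowest value for 15 of 25 T cell genes and 9 of 14 chemokine genes, against 26.7% of all named genes. The spans of these lists were 0.152 and 0.165 with a common median, against 0.061 and 0.096.

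Sample 2 had the lowest medians for the cell cycle and plasma cell lists. The medians of the cell cycle list were 0.09, -0.09 and 0.01, and 13 of its 19 genes above background had their lowest value in sample 2, against 24.5% of all named genes. Mki67, a marker of cycling cells, read 659, 491 and 593, Ube2c read 507, 365 and 381, and Mcm5, of the replication helicase, read 910, 645 and 662 on array A and 744, 634 and 653 on array B. The brightest member, Pcna, the replication clamp, read 1849, 1780 and 2029, and Mcm7, Mcm2 and Mcm6 read 1432, 1209 and 1187, 1208, 1200 and 1217, and 1160, 1045 and 1077. Of 25 members 19 were above background (76.0%), and Bub1, Aurkb and Tyms were below it in every sample. The plasma cell list had medians of 0.09, -0.09 and 0.03, and 5 of its 8 genes above background on array A had their lowest value in sample 2.

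**Figure D5:**
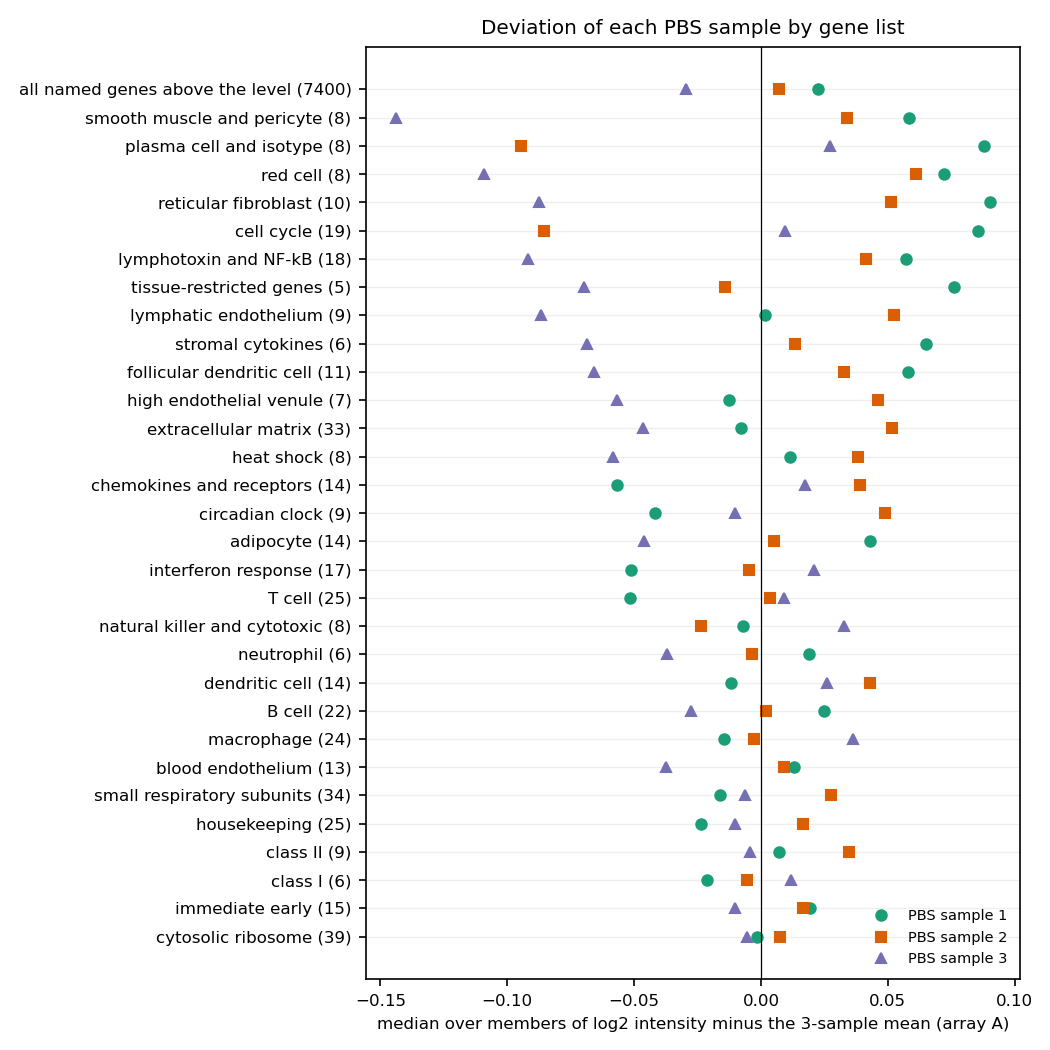
Median over list members of log2 intensity minus the mean of the 3 samples, for PBS samples 1, 2 and 3 on array A, with the number of genes above background in brackets. The top line gives all 7400 named genes (0.02, 0.01 and -0.03). Sample 3 lies at -0.14 for smooth muscle and pericyte genes, and ribosomal genes lie within 0.01 of 0.

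The order of the samples was compared between the arrays by sample number, which may or may not mark the same RNA. Of the 953 genes above background on both, the 200 with the widest spread on array A had their highest value in the same-numbered sample on array B in 38% (95% exact interval 31.2% to 45.1%, counting error only). Over all 953 genes the share was 36.2%. For the lowest sample the shares were 44.5% and 40.3%. Pearson's r of the deviations across these 200 genes, a description with no independent points, was 0.12, 0.07 and -0.01 for samples 1, 2 and 3. With a second probe set of array A in place of array B, it was 0.30, 0.16 and 0.16. The 100 probe sets other than controls that both arrays carry had a median difference in level of -0.05 (log2, array A minus array B). Single probe sets differed more, with a SD of the difference of 0.28 to 0.33 in the 3 sample numbers and a largest difference of 1.40, against a median SD between samples of 0.07 (array A) and 0.09 (array B).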

How the data were processed

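The deposited tables of mouse mesenteric lymph node RNA were read for the PBS day 0 columns only. The values the authors deposited are 1 intensity per probe set on a linear scale, never negative; no label names the software, background correction or scaling behind them. They were used as deposited, each table on its own, without the 64 control probe sets of each. Genes were named from the platform annotation where a probe set has 1 symbol (20380 on array A, 14661 on array B); 691 and 245 had several and 1555 and 7605 none. The brightest probe set by mean stands for a gene. SDs of log2 used values of at least 1.

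The background level was the 90th percentile of the tissue-restricted list. Genes named are the 25 and 12 brightest and the 15 and 8 most variable of arrays A and B, per list the 4 brightest members and members below background in all samples (outside the tissue-restricted list), and 16 stromal and lymphotoxin genes. The members and lists were chosen with earlier results of these data known; genes outside the rule were chosen after their values were seen. Whether samples are separate mice is not given, so spread may be technical, and the number of arrays limits the precision. Alternatives covered scaling, the level, probe set choice and omission of single samples. Python 3.11.15, numpy 2.4.6, pandas 2.3.3 and scipy 1.17.1 were used, and the calculation of spread was tested on simulated data.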

Additional observations from a re-analysis of the deposited data

How the results depend on the processing

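No paired analysis was possible because only 1 group was described and no test was made. The level mattered most on array B, where the tissue-restricted list had 4 probe sets: 10465 probe sets passed at the table median and 7559 at the 75th percentile of the list, against 4999, and 5534 at the level of array A, a choice made after seeing the data. At the 75th percentile 12 tissue-restricted genes passed, against 5. The counts of the other gene classes stayed within 1.5 times under the alternatives run, while those of the mast cell, pancreas, red cell, mesothelium and nerve lists, with at most 8 genes above it, did not. Of the 100 brightest probe sets of each array, at least 95 were kept under the alternatives run. When 1 sample was left out, so that 2 remained, the median SD (log2) was 0.061 to 0.0806 (array A) and 0.0655 to 0.0703 (array B). It was 0.0868 on array B with samples scaled to a common median, and 0.0323 on array A and 0 on array B without a filter, with values raised to the level. Lists spanning at least 0.15 numbered 2 with quantile normalization (plasma cell and cell cycle), 3 with a common median and 2 without a filter (reticular fibroblast and red cell), against 5. With a common median, plasma cell was the only one of the 5 still there, at 0.174, and T cell (0.152) and chemokine genes (0.165) were added. In the second probe set of array A, also added after seeing the data, 52% of the 200 most variable genes had the same lowest sample, against 44.5% on array B.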

Other observations

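Several lists that mark the state of a node rather than its cells were also measured. Of 20 interferon response genes 17 were above background (85.0%). Ifi27l2a read 2341, 1927 and 2070, and the guanosine triphosphatases Ifi47, Igtp and Iigp1 read 1321, 1125 and 1246, 1063, 1158 and 1126, and 1001, 1121 and 1006. Only Ifit2 was below the level in every sample. Of 19 immediate early genes, which respond within minutes to handling or stimulation, 15 were above it (78.9%). Jund read 3041, 3033 and 2885, and Nr4a1, Btg2 and Egr3 read 1699, 1756 and 1799, 1571, 1452 and 1539, and 1244, 1186 and 1147. Fos read 342, 318 and 341, and Fosb and Egr2 were below the level. The median SD of this list was 0.059 (log2), below the 0.082 of all named genes above background on array A.

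Of 17 circadian clock genes 10 were above background (58.8%). Tef, Nr1d1, Per1 and Bhlhe40 read 1091, 1201 and 1080, 630, 605 and 610, 466, 574 and 597, and 449, 511 and 478. Dbp, an output of the clock, read 343, 468 and 535 on 1 probe set and 404, 470 and 463 on the other, lowest in sample 1 on both. Npas2, Hlf, Cry1, Cry2, Bhlhe41 and Nfil3 were below the level. The heat shock list had 8 of 9 genes above it (88.9%), led by Hsp90aa1 with 2836, 2835 and 2459, Hspa5, Hspd1 and Hspe1, and Hspa1a was below it.

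Red cell genes were dim. All 8 named members were above background, but their median intensity on array A was 306.9, close to the level of 255.6, and 4 passed at the table median. Hbb-b2, a beta globin, read 322, 548 and 422, Klf1 read 404, 304 and 300, Epb42 read 328, 306 and 322, and Slc4a1 read 331, 335 and 266. Hba-a1 and Hba-a2, near-identical alpha globin genes, read 314, 287 and 268, and 336, 316 and 257. Among 5 mesothelium genes Upk3b alone was above the level, with 378, 325 and 263, and Msln, Wt1, Krt19 and Lrrn4 were below it. Th and Prph, of nerves, read 379, 336 and 376, and 308, 320 and 342, and S100b was below. Ckm, muscle creatine kinase, read 595, 543 and 532, and Acta1, Myh4 and Tnnt3 were below. Of the 39 tissue-restricted genes 5 were above the level that their own list set (12.8%): Omp with 752, 674 and 497, then Nphs1, Opn1mw, Tyr and Tshb.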
